A study of Mus musculus with 4 samples.

Results

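Foxp3, Il2ra, Ikzf2, Tnfrsf4, Tnfrsf18, Tnfrsf9, Klrg1, Izumo1r and Penk, genes that are known to be abundant in regulatory T cells of tumours, were followed in T and NK cells of mouse tumours. They were chosen by symbol, and all 9 were found among the 22620 genes of the deposited tables. The tumours were MC38, from a mouse colon carcinoma line, grown in wild-type (WT) mice or in knockout (KO) mice, and no cell type is named to which the loss would be restricted. CD45-positive cells had been enriched on magnetic beads after enzymatic digestion, and each genotype was sampled by 2 libraries of 10x 3' single-cell RNA. The sources used here give no strain, age, sex, time after tumour injection or number of mice per library. The p-values are therefore set by how much these libraries vary, and that variation may be technical.

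The libraries held 9239 and 9369 barcodes in WT and 18324 and 10344 in KO, of which 8664, 8815, 17207 and 9498 passed the filters, with medians of 9905.5, 12133, 6052 and 8308 UMIs (unique molecules) per cell. Pairs of libraries shared 22 to 51 barcodes, at most 0.541% of the smaller library.

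FOXP3 is the transcription factor that defines the regulatory T cell lineage, which restrains other T cells and depends on interleukin-2 (IL-2) made by them. IL-2 is bound with high affinity by a receptor whose alpha chain is CD25, the product of Il2ra, and the receptor signals through the transcription factor STAT5, which helps to maintain Foxp3. In tumours, regulatory T cells carry more costimulatory receptors of the TNF receptor family than in blood or lymph nodes, and activated CD8 T cells and NK cells can express some of the same receptors.

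Because some of the genes are known targets of STAT5, promoter sequence was examined for the letters of its binding motif. The 250 bases before an annotated start were available from RefSeq (GRCm38.p6) as 8 windows of 6 genes. The letters TTCNNNGAA, searched on both strands, occurred in 3 of these 8 windows, of Foxp3, Tnfrsf9 and Tnfrsf18, and in 7.02% of 32851 such mouse windows. The Tnfrsf9 window also held the NF-kappa-B motif (1.41% of windows) and the AP-1 letters TGANTCA (6.75%), and the forkhead letters TGTTTAC (3.17%) occurred in none of the 8. The letters TTCNNNGAA were absent from the other window of Foxp3 and of Tnfrsf9 and from those of Il2ra, Tnfrsf4 and Izumo1r. The matching windows of Foxp3 and Tnfrsf9 lie within the spans of these genes given below, and that of Tnfrsf18 lies partly within its span. The 3 windows are shown because they hold the letters of a factor on the IL-2 pathway, and capitals mark the matches; the Foxp3 and Tnfrsf9 windows hold the same 9 letters.
Foxp3 (chrX:7580233-7580482, plus strand): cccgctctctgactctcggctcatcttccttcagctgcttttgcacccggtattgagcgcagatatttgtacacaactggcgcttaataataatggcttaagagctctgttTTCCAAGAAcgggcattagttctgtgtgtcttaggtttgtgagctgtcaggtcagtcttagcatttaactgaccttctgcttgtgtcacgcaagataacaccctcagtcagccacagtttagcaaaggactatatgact
Tnfrsf18 (chr4:156026072-156026321, plus strand): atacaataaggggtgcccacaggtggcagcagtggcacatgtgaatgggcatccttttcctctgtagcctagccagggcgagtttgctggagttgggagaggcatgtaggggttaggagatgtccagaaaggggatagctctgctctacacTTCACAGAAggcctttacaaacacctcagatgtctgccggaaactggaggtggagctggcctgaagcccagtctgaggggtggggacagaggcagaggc
Tnfrsf9 (chr4:150927749-150927998, plus strand): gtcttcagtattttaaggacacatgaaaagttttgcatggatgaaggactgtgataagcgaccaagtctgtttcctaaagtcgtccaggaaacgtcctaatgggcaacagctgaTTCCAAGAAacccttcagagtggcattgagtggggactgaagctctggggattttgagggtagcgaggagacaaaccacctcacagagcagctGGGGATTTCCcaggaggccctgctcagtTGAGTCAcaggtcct
A match of letters is a description of the sequence, not evidence of binding, and no binding was measured here.

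Cells were gated on raw UMIs. A T cell needed at least 2 UMIs over Cd3d, Cd3e and Cd3g, then a Cd4 UMI with no Cd8a or Cd8b1 UMI for the CD4 gate, or the converse for the CD8 gate. An NK cell needed at least 2 UMIs over Ncr1, Klrb1c and Klre1 and at most 1 CD3 UMI, and macrophage UMIs were held to 0.5% of a cell's total in every gate. The CD4 gate held 88, 112, 137 and 114 cells in WT 1, WT 2, KO 1 and KO 2, the CD8 gate 30, 94, 831 and 405, and the NK gate 23, 45, 216 and 175. The median depth of CD4-gated cells lay between 3342 and 3387.5 UMIs in all 4 libraries. T cell markers summed to between 5766 and 6024 counts per 1e6 UMIs (CPM) in the CD4 gate, and Cd8a and Cd8b1 were at 0 by construction. Despite the limit, 9 macrophage and monocyte markers summed to 834 and 1052 CPM in the WT CD4 gates and to 2496 and 1677 in the KO CD4 gates. The same list gave 629 and 886 against 2372 and 1691 CPM in the CD8 gates, and 535 and 854 against 2270 and 1609 in the NK gates, so that both KO libraries were above both WT libraries in all 3 gates. Its part in the KO and WT differences was not tested. In macrophage-gated cells, Tnfrsf9 was at 90.2 to 193 CPM and each other gene of the set below 8 CPM.

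Foxp3 (ENSMUSG00000039521, chromosome X, 7573644 to 7595245, plus strand; GENCODE M21 on GRCm38 here and below) was at 421 and 361 CPM in the WT CD4 gates and at 235 and 365 in the KO CD4 gates. KO 1 was lowest, while KO 2 lay between the WT libraries, so that the genotypes overlapped. In the CD8 gate it was at 12.2, 25.2, 7.78 and 11.9 CPM, carried by 1, 3, 13 and 10 cells, and in the NK gate the sole UMIs were 2 in KO 1. The fitted difference between CD4 and CD8 gates was 4.52 ± 0.19 log2 units (SE; adjusted p = 3.3e-12, edgeR's quasi-likelihood test on 8 sums of UMIs with library as a block, Benjamini-Hochberg over all genes tested). At a fixed depth of 2000 UMIs per cell, 41 of 82, 47 of 97, 39 of 127 and 47 of 101 CD4-gated cells in WT 1, WT 2, KO 1 and KO 2 had a Foxp3 UMI. Among macrophage-gated cells, which should lack it, 0.236%, 0.210%, 0.338% and 0.300% had one at median depths of 12258, 13689, 9273 and 13965 UMIs.

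Of the 9 genes, 8 were higher in CD4-gated than in CD8-gated cells, against 7.65% of 6180 genes tested that were higher and 13.5% called in either direction. Il2ra (ENSMUSG00000026770, chromosome 2, 11642807 to 11693193, plus strand) was at 656, 404, 440 and 452 CPM in the CD4 gates and at 128, 75.5, 79.9 and 85.9 in the CD8 gates, a difference of 2.26 ± 0.13 log2 units (adjusted p = 3.6e-10). WT 1 was the highest library in both gates, and every CD4 gate was above every CD8 gate. Ikzf2 (ENSMUSG00000025997, chromosome 1, 69531214 to 69687245, minus strand) encodes Helios, an Ikaros-family factor of regulatory T cells. It was at 882, 721, 701 and 923 CPM in the CD4 gates and at 147, 205, 58.7 and 68.4 in the CD8 gates, 2.84 ± 0.44 log2 units apart (adjusted p = 0.0321). That call was lost without WT 1 (adjusted p = 0.132) or KO 1 (0.141).

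The 3 costimulatory receptors lie on chromosome 4, where 9551 bases separate Tnfrsf4 (ENSMUSG00000029075, 156013843 to 156016612, plus strand) from Tnfrsf18 (ENSMUSG00000041954, 156026164 to 156028895, plus strand). Tnfrsf4, which encodes OX40, was at 1438, 1660, 1534 and 2459 CPM in the CD4 gates and at 171, 211, 142 and 184 in the CD8 gates, a difference of 3.18 ± 0.12 log2 units. In NK-gated cells it was at 28.9, 0, 2.10 and 2.09 CPM, from 4, 0, 2 and 2 UMIs. Tnfrsf18, which encodes GITR, was at 1088, 1006, 953 and 1352 CPM in the CD4 gates and at 128, 270.2, 252 and 356 in the CD8 gates (1.95 ± 0.17). The NK gates held it at 145, 174, 161 and 164 CPM, in a narrow range over libraries. Tnfrsf9 (ENSMUSG00000028965, 150914562 to 150946102, plus strand), which encodes CD137, was at 839, 1052, 972 and 1399 CPM in the CD4 gates and at 238, 446, 524 and 644 in the CD8 gates. Its difference of 1.06 ± 0.13 log2 units was the smallest of the 8 that passed. In NK cells it was at 108, 493, 330 and 567 CPM, with WT 1 near the 90.2 CPM of macrophage-gated cells in the same library.

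Klrg1 (ENSMUSG00000030114, chromosome 6, 122270596 to 122282882, minus strand) encodes an inhibitory receptor for cadherins that marks terminally differentiated regulatory and effector lymphocytes. It was at 466, 289.7, 181 and 261 CPM in the CD4 gates and at 36.7, 6.71, 10.999 and 13.6 in the CD8 gates (4.08 ± 0.19 log2 units, adjusted p = 1.4e-11). Izumo1r (ENSMUSG00000031933, chromosome 9, 14885814 to 14903949, minus strand), which encodes folate receptor 4, was at 307, 259, 183 and 188 CPM against 6.11, 5.03, 12.6 and 8.08 (4.20 ± 0.21, adjusted p = 8.6e-11). Penk (ENSMUSG00000045573, chromosome 4, 4133531 to 4138819, minus strand), which encodes the enkephalin precursor, was at 219, 436, 366 and 131 CPM against 0, 23.5, 17.2 and 49.7. Its fitted difference of 3.16 ± 0.81 log2 units missed the threshold (adjusted p = 0.128), but passed with DESeq2 (adjusted p = 0.00059), without cells over 20000 UMIs (2.2e-05), without the library block (0.037) and without KO 2 (2.7e-10). Izumo1r and Penk had no UMI in any NK gate, which allows up to 21.7, 7.79, 3.152 and 3.138 CPM in WT 1, WT 2, KO 1 and KO 2 (3 counts per library; such limits and the intervals given here cover counting error only).

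**Figure D1:**
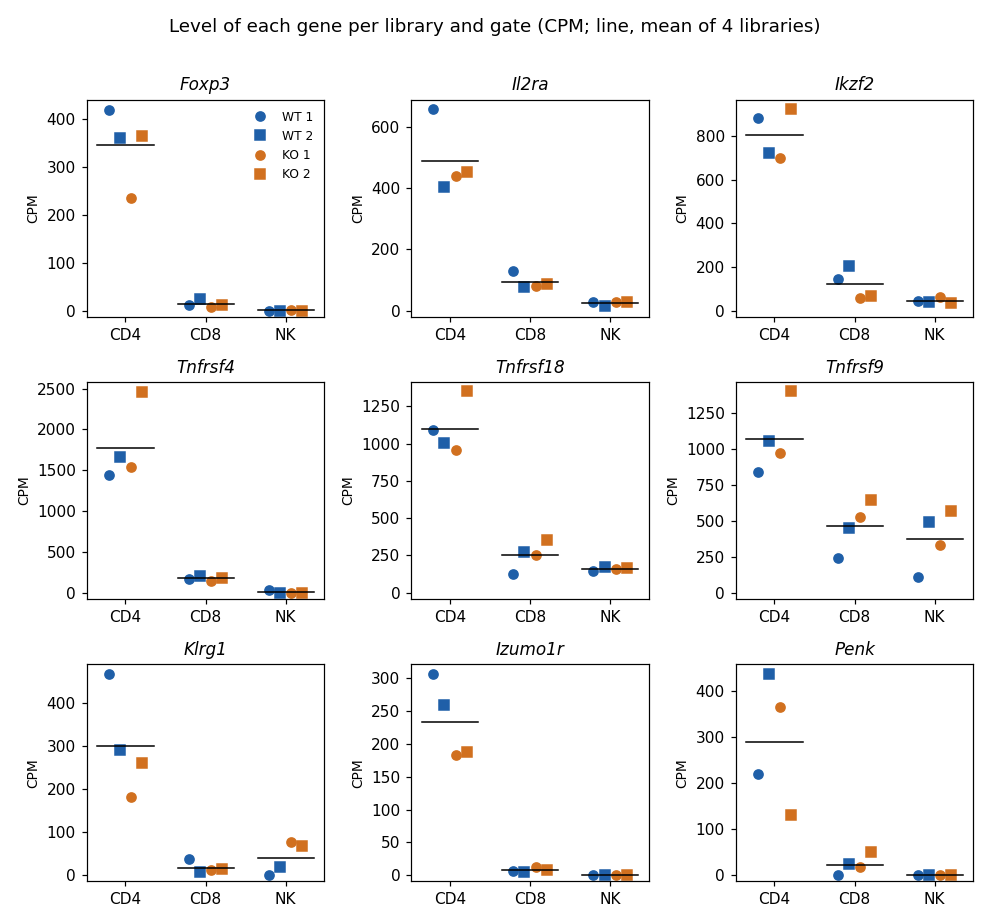
CPM of each of the 9 genes (y axes, linear, each with its own range) in the CD4, CD8 and NK gates (x axis), 1 point per library, with WT in blue, KO in orange and a line at the mean of the 4 libraries. Every CD4 point lies above every CD8 point for all 9 genes, and the share of all genes for which this holds was not counted. In the CD8 gate the genotypes do not overlap for Foxp3, Ikzf2, Tnfrsf9 and Izumo1r, as for 45% of all genes tested there.

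Between NK-gated and CD8-gated cells 6 genes could be tested, and 4 of them passed, against 12.8% of the 6865 genes tested. In NK cells Tnfrsf4 was lower by a fitted -5.62 ± 0.40 log2 units, Il2ra by -1.69 ± 0.20 and Tnfrsf18 by -0.71 ± 0.15, and Klrg1 was higher by 2.28 ± 0.45 (adjusted p = 2e-06, 1.4e-05, 0.00364 and 0.014). Ikzf2 (-0.92 ± 0.36, adjusted p = 0.178) and Tnfrsf9 (-0.32 ± 0.17, adjusted p = 0.269) missed the threshold. The Tnfrsf18 call was lost with DESeq2 (adjusted p = 0.0888) and without KO 1 (0.0981) or KO 2 (0.179), and the Klrg1 call with DESeq2 (0.318). Without KO 1 Ikzf2 passed (adjusted p = 0.00558), as it did without the filter on low counts, and Tnfrsf9 passed without WT 2 (0.0448) and without cells over 20000 UMIs (0.016). In WT 1 Klrg1 was at 0 CPM in the NK gate and at 36.7 in the CD8 gate, against the direction of the fit, and CD4 and NK gates were not tested against each other.

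Within the CD4 gate, cells were divided by the presence of a Foxp3 UMI, which gave 55, 70, 60 and 67 positive and 33, 42, 77 and 47 negative cells. The positive cells were deeper, with medians of 3937, 3693.5, 3385.5 and 3876 UMIs against 2673, 3183, 3342 and 3202, and a negative cell may hold Foxp3 RNA that was not sampled. Macrophage markers summed to 816, 1071, 2081 and 1476 CPM in the positive and to 866, 997, 2879 and 2129 in the negative cells, and neutrophil markers reached 850.1 CPM in the negative cells of KO 1. Dendritic cell markers summed to 11.1, 39.1, 24.7 and 28.9 CPM in the positive and to 403, 52.5, 35.8 and 35.7 in the negative cells. For NK markers the sums were 126, 66.8, 98.8 and 142 CPM in the positive and 145, 151, 485 and 280 in the negative cells. Their part in the differences was not tested. Of the 8 other genes, 6 were higher in Foxp3-positive cells (edgeR, library as a block), against 3.74% of 4035 genes tested that were higher and 8.45% called in either direction. Ikzf2 was at 1106, 857, 1213 and 1158 CPM in the positive cells and at 483, 335, 228 and 393 in the negative cells, which gave 1.56 ± 0.17 log2 units (adjusted p = 4.7e-06). Il2ra was at 827, 449, 744 and 597 CPM against 350.3, 275, 160 and 125 (1.50 ± 0.23, adjusted p = 0.00102), a call lost where Cd4 was not required (1.70, adjusted p = 0.0704). For both genes the lowest positive library was above the highest negative one, as it was for the TNF receptor genes and Klrg1 below. The share of all genes tested with such a gap was not counted.

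The TNF receptor genes differed less between these cells. Tnfrsf9 was at 1009, 1227, 1301 and 1597 CPM in Foxp3-positive and at 535, 551, 668 and 952 in Foxp3-negative cells (0.86 ± 0.12 log2 units, adjusted p = 7.5e-05). Tnfrsf4 was at 1736, 1727, 2130.2 and 2887 CPM against 906, 1469, 984 and 1493 (0.73 ± 0.12, adjusted p = 0.00037), and Tnfrsf18 at 1254, 1096, 1312 and 1524 against 793, 748, 622 and 964 (0.66 ± 0.12, adjusted p = 0.000932). All 3 were higher in the positive cells of every library, and all 3 were also present at 535 CPM or more in CD4 cells without a Foxp3 UMI.

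Izumo1r was at 389.5, 258, 293 and 221 CPM in positive and at 159, 262, 81.4 and 113 in negative cells, which was higher in 3 of 4 libraries and about level in WT 2. Its difference of 0.91 ± 0.23 log2 units passed (adjusted p = 0.0199) but was lost with DESeq2 (adjusted p = 0.0935), without the macrophage limit (0.0918) and without WT 1 (0.101), KO 1 (0.0967) or KO 2 (0.0887). Klrg1 was at 627, 352, 356 and 303 CPM against 178, 112, 19.5 and 167, higher in 4 of 4 libraries, and its 1.85 ± 0.45 log2 units missed the threshold (adjusted p = 0.0812). It passed under 7 of its alternatives, among them DESeq2 (adjusted p = 0.0405) and the fits without KO 1 (3.5e-05) or KO 2 (0.0133). Penk was at 286, 550.3, 233 and 68.4 CPM against 99.1, 112, 489 and 274, higher in Foxp3-positive cells of both WT libraries and lower in those of both KO libraries, with a fitted difference of -0.0044 ± 0.90 log2 units over all 4.

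**Figure D2:**
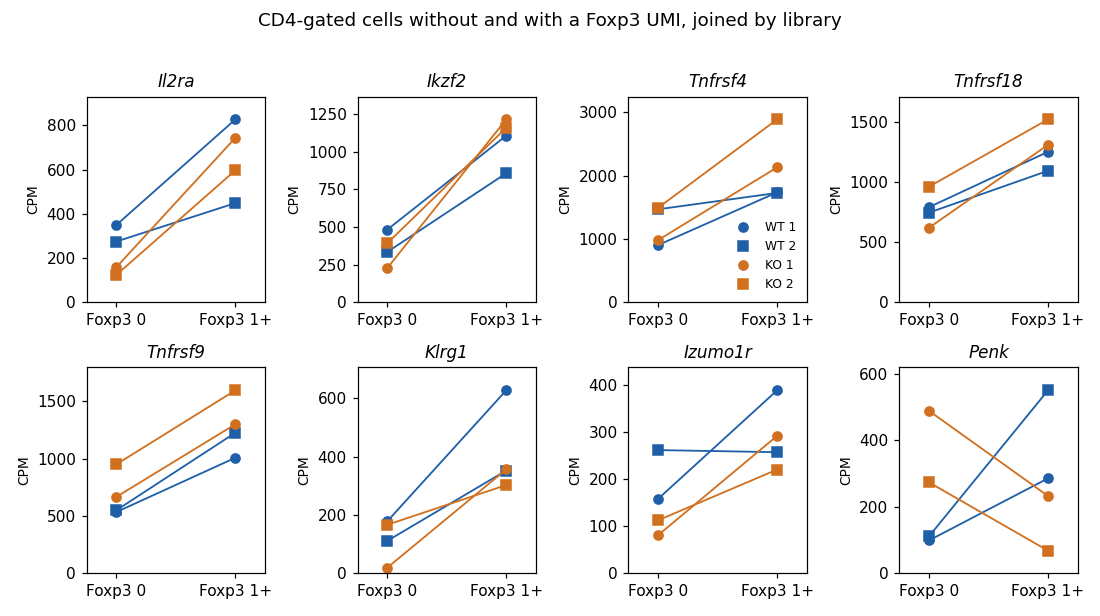
CPM (y axes, linear, from 0) of 8 genes in CD4-gated cells without (Foxp3 0) and with (Foxp3 1+) a Foxp3 UMI, with a line joining the 2 sums of each library, WT in blue and KO in orange. The lines rise for all genes in all libraries except Izumo1r in WT 2 and Penk in KO 1 and KO 2.

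At a fixed depth of 2000 UMIs, cells with a Foxp3 UMI held a median of 5, 6, 5 and 5 of the 8 other genes in WT 1, WT 2, KO 1 and KO 2, and cells without one a median of 4, 3, 3 and 3. At least 5 of the 8 were seen in 58.5%, 68.1%, 69.2% and 74.5% of the positive cells and in 39.0%, 32.0%, 22.7% and 27.8% of the negative cells. The share was higher among positive than among negative cells in each of the 4 libraries. None of the 8 was seen in 1, 0, 0 and 0 of the positive cells and in 5, 6, 9 and 6 of the negative cells.

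Penk differed from the other genes in how its UMIs were spread over cells. The 10% of CD4-gated cells with the most Penk UMIs held 90.6% to 98.6% of them, against 27.4% to 33.7% for Tnfrsf18 and 35.6% to 38.8% for Foxp3. Klrg1 (44.4% to 61.7%) and Izumo1r (48.7% to 59.3%) lay between, and Il2ra ranged from 35.5% to 57.7%. In WT 1, WT 2, KO 1 and KO 2, 8, 11, 10 and 4 CD4-gated cells had 5 or more Penk UMIs, and they held 88.0%, 90.6%, 93.5% and 79.2% of the UMIs of the gene. Of these cells, 7, 9, 4 and 2 also had a Foxp3 UMI. In KO 1 a single cell held 76 of 216 Penk UMIs, and in WT 2 one held 74 of 256. In the CD8 gate of KO 2 a cell of 34201 UMIs held 79 of 117, and the level there was 16.4 CPM without it and 49.7 with it.

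**Figure D3:**
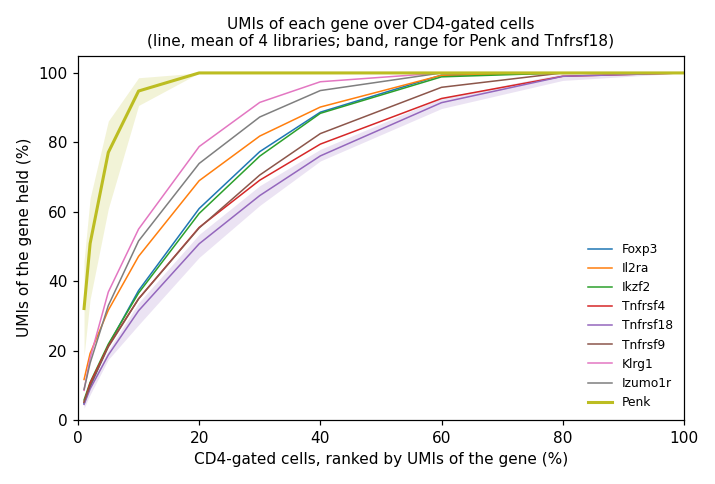
Share of a gene's UMIs (y axis, %) held by the CD4-gated cells with the most of them (x axis, % of cells, ranked per gene and library), as the mean of 4 libraries, with a band for the range over libraries of Penk and Tnfrsf18. The Penk curve stands above the others, with 90.6% to 98.6% of its UMIs in 10% of the cells.

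The genes whose levels were most like that of Foxp3 were sought over the 12 sums of 3 gates and 4 libraries, by Pearson correlation of log2(CPM + 1) among 7730 genes with a mean of at least 10 CPM. The sums of a library share its depth and the 3 gates differ in cell type, so that r is given as a description. Smpdl3a, which encodes a phosphodiesterase (r = 0.982), and Itgb8, an integrin chain that activates TGF-beta (0.980), came first. Il2ra (0.977), Izumo1r (0.976) and Ikzf2 (0.974) ranked 3, 4 and 5, before the cytokine receptor gene Il27ra (0.974), the adhesion gene Cd2 (0.972), Cmtm7 (0.972), the GTPase gene Rac2 (0.967) and Supt20 (0.966). Tnfrsf18 (0.925), Tnfrsf4 (0.921) and Penk (0.917) ranked 55, 61 and 69, and Tnfrsf9 (0.728) and Klrg1 (0.711) ranked 665 and 754.

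Foxp3 detection was then compared between genotypes. Of CD4-gated cells, 55 of 88 (62.5%, exact Clopper-Pearson 95% interval 51.5 to 72.6) had a Foxp3 UMI in WT 1, 70 of 112 (62.5%, 52.9 to 71.5) in WT 2, 60 of 137 (43.8%, 35.3 to 52.5) in KO 1 and 67 of 114 (58.8%, 49.2 to 67.9) in KO 2. Both KO libraries were below both WT libraries, with a KO minus WT difference of -11.2 points between the means, which was -3.73 points without KO 1 and -18.7 without KO 2. The exact two-sided permutation test gave p = 0.33, the smallest that 2 against 2 libraries allow. At 2000 UMIs per cell the difference was -10.6 points. Where Cd4 was not required, CD3-positive cells without Cd8a or Cd8b1 UMIs and with at most 1 UMI over Ncr1, Klrb1c and Klre1 were counted. The shares were then 54.1%, 54.9%, 33.7% and 40.9%, a difference of -17.2 points with the same p. Among CD3-positive cells with no Cd4, Cd8a or Cd8b1 UMI, taken without that NK limit, NK markers summed to 268, 451, 1050 and 656 CPM. In CD4-gated cells of KO 1, NK markers summed to 299.7 CPM and neutrophil markers to 445, against 88.6 to 184 and 0 to 42.0 in the other 3 libraries, and their part in the share was not tested.

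**Figure D4:**
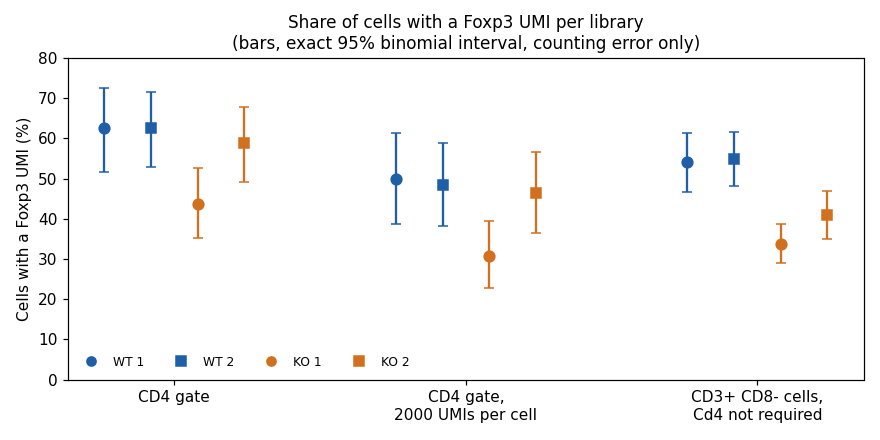
Share of cells with a Foxp3 UMI (y axis, %) per library, with exact 95% binomial intervals, in the CD4 gate, in the CD4 gate at 2000 UMIs per cell and in CD3-positive cells in which Cd4 was not required. KO 1 is lowest in each set, and in the CD4 gate KO 2 at 58.8% lies inside the intervals of both WT libraries.

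In CD4-gated cells, no gene of the 9 passed the test of KO against WT (edgeR's quasi-likelihood test, 4 sums of UMIs), against 1.03% of 6408 genes tested, and DESeq2 called 0 as well. At an unadjusted p under 0.05 there were 4, namely Klrg1, Izumo1r, Tnfrsf4 and Tnfrsf9, against 474 of the 6408 genes tested. Foxp3 differed by -0.35 ± 0.18 log2 units (adjusted p = 0.72), and by -0.09 without KO 1. Klrg1, from the levels given above, differed by -0.73 ± 0.20 (adjusted p = 0.082) and Izumo1r by -0.57 ± 0.19 (adjusted p = 0.203). These were the 2 genes whose WT and KO libraries did not overlap, both lower in KO, where 36% of all genes tested did not overlap and 20.7% were lower in this way. Where Cd4 was not required, Izumo1r passed at -0.88 (adjusted p = 0.00282). Klrg1 passed with the replicate number as a block (-0.71, adjusted p = 0.0478), without the filter on low counts (-0.72, 0.0139), without WT 2 (-1.04, 0.000146) and without KO 2 (-0.98, 0.0148). Tnfrsf4 (0.39 ± 0.17), Tnfrsf9 (0.35 ± 0.17) and Tnfrsf18 (0.17 ± 0.16) had their highest level in KO 2 and overlapped between genotypes. Il2ra (-0.20 ± 0.18), Ikzf2 (0.05 ± 0.17) and Penk (-0.36 ± 0.83) overlapped too, and Penk passed without KO 1 (-1.33, adjusted p = 0.000621).

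A summed level in a gate cannot tell fewer cells of a type from less RNA per cell, so the test was repeated on Foxp3-positive CD4 cells. Of the 8 genes, 0 passed, against 0.466% of 4723 genes tested, and DESeq2 called 0. At an unadjusted p under 0.05 there were 3, against 328 of all genes tested. Tnfrsf4 was at 1736 and 1727 CPM in WT and at 2130.2 and 2887 in KO, without overlap, and differed by 0.55 ± 0.18 log2 units (unadjusted p = 0.00513, adjusted p = 0.343). Tnfrsf9 (0.39 ± 0.18), Tnfrsf18 (0.29 ± 0.17) and Ikzf2 (0.30 ± 0.18) were also higher in both KO libraries than in both WT libraries, as were 17.7% of all genes tested, and 35.9% of all genes tested did not overlap in one direction or the other. Macrophage markers, as given above, were higher in these KO cells than in the WT cells. Without WT 1, Tnfrsf4 passed (0.54, adjusted p = 0.0244). Klrg1 (-0.53 ± 0.22), Izumo1r (-0.30 ± 0.22) and Il2ra (0.11 ± 0.23) overlapped between genotypes. Penk, lower in both KO libraries than in both WT libraries, differed by -1.56 ± 0.79 (adjusted p = 0.886). With the replicate number as a block it passed at nearly the same difference (-1.57, adjusted p = 5.2e-08). That fit leaves little from which to estimate the spread, the libraries are not shown to be paired, and few cells held most Penk UMIs. Without KO 1 the difference was -2.63.

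In CD8-gated cells 1 of the 9 genes passed, against 1.64% of 8352 genes tested, of which 0.216% were lower in KO. Ikzf2 was at 147 and 205 CPM in WT, from 24 and 122 UMIs, and at 58.7 and 68.4 in KO, from 219 and 161. The genotypes did not overlap, and Ikzf2 fell by 1.50 ± 0.19 log2 units (adjusted p = 0.000679). The call stayed past the threshold in 12 of 13 alternatives, DESeq2 included (-1.45, adjusted p = 0.00122), and was lost without WT 2 (-1.05, adjusted p = 0.128). An Ikzf2 UMI was seen in 7 of 30 cells in WT 1, 46 of 94 in WT 2, 123 of 831 in KO 1 and 70 of 405 in KO 2. CD8-gated cells with a Foxp3 UMI held 6, 19, 32 and 44 of the Ikzf2 UMIs. Without these cells Ikzf2 was at 117 and 176 CPM in WT and at 51.0 and 50.7 in KO, again without overlap. The share of the remaining cells with an Ikzf2 UMI was 20.7% in WT 1, 47.3% in WT 2, 13.9% in KO 1 and 15.4% in KO 2. By this share, taken without thinning to a fixed depth, WT 1 was nearer to the KO libraries than to WT 2. A CD8-gated cell without a Foxp3 UMI may hold Foxp3 RNA that was not sampled, and the part of regulatory T cells in this gate was not tested. In macrophage-gated cells Ikzf2 was at 5.15 and 3.81 CPM in WT and at 7.48 and 4.89 in KO.

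The other genes did not pass in CD8 cells. Tnfrsf9 was higher in both KO libraries than in both WT libraries and differed by 0.73 ± 0.24 log2 units (adjusted p = 0.215). It passed without the filter on low counts (0.80, adjusted p = 0.000599), with the replicate block (0.85, 0.0111), without WT 2 (1.45, 0.00333) and without KO 1 (0.93, 0.0491). Izumo1r lay higher in KO at 1 to 47 UMIs per library (1.076 ± 0.71) and Foxp3 lower at 2 to 29 UMIs (-1.14 ± 0.48, adjusted p = 0.347), both without overlap. With Ikzf2 and Tnfrsf9 this made 4 of 9 genes without overlap, where 45% of all genes tested had none. Tnfrsf18 (0.50 ± 0.30), Tnfrsf4 (-0.23 ± 0.19), Il2ra (-0.04 ± 0.22), Klrg1 (-0.10 ± 0.60) and Penk (0.86 ± 1.29) overlapped between genotypes. The genotype effect on Ikzf2 differed between the CD4 and CD8 gates by 1.51 ± 0.27 log2 units (adjusted p = 0.0174, interaction term over 8 sums), the sole 1 of the 9 to pass, against 0.17% of 7073 genes tested. That call was lost with DESeq2 (adjusted p = 0.157), without the macrophage limit (0.203), without WT 2 (0.191) and without KO 2 (0.0854).

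In NK-gated cells 5 of the 9 genes passed the filter on low counts and 1 passed the test, against 1.16% of 6654 genes tested, of which 0.526% were higher in KO. The libraries of 42.3% of these genes did not overlap between genotypes. Klrg1 was at 0 and 18.2 CPM in WT, from 0 and 7 UMIs, and at 76.7 and 66.9 in KO, from 73 and 64 UMIs. The fitted difference was 2.40 ± 0.50 log2 units (adjusted p = 0.0234). A single KO 1 cell of 37047 UMIs held 38 of the 73, and without the highest cell of each library the levels were 0, 5.24, 38.3 and 58.6 CPM. The NK-gated cells over 20000 UMIs, 2 in KO 1 and 6 in KO 2, held 40 and 32 Klrg1 UMIs. In the NK gates of WT 1, WT 2, KO 1 and KO 2, 8 NK markers, some of them used in the gate, summed to 4164, 2484, 6107 and 6059 CPM. Dendritic cell markers summed to 448, 101, 13.7 and 100 CPM there, and neutrophil markers to 0, 431, 148 and 2.09. The part of these differences in that of Klrg1 was not tested. The call was lost without cells over 20000 UMIs (1.29, adjusted p = 0.387), without the macrophage limit (1.27, 0.384), with a limit of 2% (1.30, 0.294), with total counts as the scaling (2.43, 0.0696) and with DESeq2 (2.52, 0.157). It was kept without each library in turn, with a fitted 8.63 that is no bound where WT was left with 0 UMIs. The other genes tested in NK cells were Il2ra (0.53 ± 0.47), Ikzf2 (0.21 ± 0.40), Tnfrsf9 (0.40 ± 0.93) and Tnfrsf18 (-0.02 ± 0.22), and none of them passed. For Tnfrsf9 WT 1 and WT 2 lay on either side of KO 1, at 108, 493 and 330 CPM, and without WT 2 it passed (2.18, adjusted p = 4.8e-06). Between the NK and CD8 gates the genotype effect was tested for 7 genes and passed for 0, against 0.467% of 7915 genes tested, and DESeq2 called 0. At an unadjusted p under 0.05 there were 2, against 695 of all genes tested, and the effect was 1.72 ± 0.41 for Ikzf2 (adjusted p = 0.0592).

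**Figure D5:**
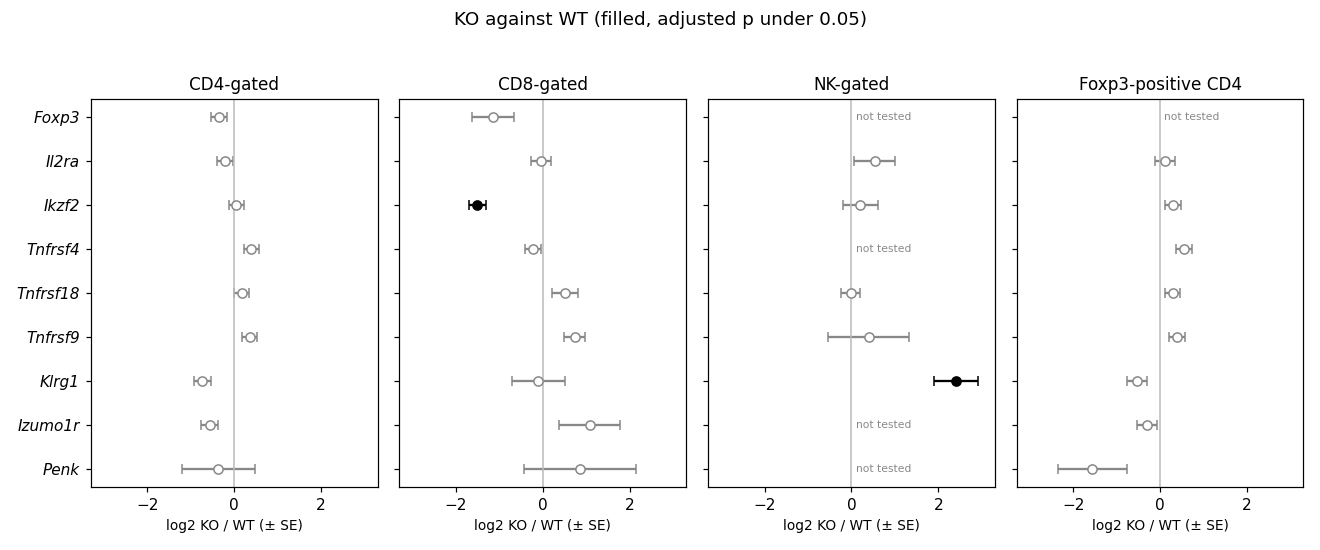
Fitted log2 difference of KO against WT (x axes, points, with bars for the standard error) for those of the 9 genes that were tested in CD4-gated, CD8-gated, NK-gated and Foxp3-positive CD4-gated cells, with filled points where the adjusted p was under 0.05. The 2 filled points are Ikzf2 in the CD8 gate at -1.50 and Klrg1 in the NK gate at 2.40.

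Other genes of the same pathways were read from 5 lists. Of 25 further regulatory T cell genes, 21 were tested between Foxp3-positive and Foxp3-negative CD4 cells, and 5 were higher and 1 lower, with a median of 0.58 log2 units against -0.01 over all genes. Of all 4035 genes tested, 3.74% were higher and 4.71% lower. Lrrc32, which anchors latent TGF-beta on the cell surface, was at 41.4 to 102 CPM in positive and at 6.56 to 17.8 in negative cells (2.57 ± 0.39). Itgb8 (1.90), the integrin chain gene Itgae (1.58), the inhibitory receptor gene Ctla4 (1.077) and the transcription factor gene Maf (0.64) were higher too. Nrp1, also listed for regulatory T cells, was lower, at 44.5, 32.2, 31.7 and 15.8 CPM against 99.1, 98.4, 104 and 119 (-1.86 ± 0.30). Of 17 naive and helper T cell genes, 11 were tested and 4 were lower, against 4.71% of all genes tested. They were Bhlhe40 (-1.86), Tnf (-1.75), Cxcr6 (-1.46) and Lef1 (-1.17).

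Of 12 IL-2 signalling genes, 11 were tested between the same cells and 2 were lower, with a median of -0.20. Here and for the lists below, the shares over all genes tested were 4.71% lower and 3.74% higher. Bcl2, which encodes a survival protein, was at 3.71, 6.91, 3.53 and 2.63 CPM in Foxp3-positive and at 66.1, 112, 121 and 214 in Foxp3-negative cells, without overlap (a fitted -4.83 ± 0.40). Stat5b, which encodes one of the STAT5 proteins, was lower by a fitted -0.99 ± 0.28 (adjusted p = 0.0319). Of 15 effector maturation genes, 9 were tested, of which the granzyme gene Gzmb (1.29 ± 0.13) and the costimulatory gene Cd27 (1.19 ± 0.25) were higher and the surface antigen gene Ly6c2 was lower (-4.40 ± 0.37). Gzmb was at 1332, 1584, 1269.7 and 2426 CPM in Foxp3-positive and at 661, 715, 391 and 797 in Foxp3-negative cells. Of 12 genes for ligands and signalling partners of the receptors, 8 were tested and 0 passed.

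Between genotypes, 22 of the 25 further regulatory T cell genes were tested in CD4-gated cells, and 2 were higher in KO, against 0.874% of all genes tested. The decoy receptor gene Il1r2 was at 192 and 191 CPM in WT and at 371 and 312 in KO (0.87 ± 0.19), and the inhibitory receptor gene Lag3 at 202 and 160.2 against 322 and 268 (0.75 ± 0.19). The list had a median of 0.03, and Tnf was the 1 of 13 helper genes tested that rose (1.90 ± 0.35). In CD8-gated cells 4 of 16 rose, against 1.42% of all genes tested, with a median of 0.52. Icos was at 67.2 and 90.6 CPM in WT and at 393 and 315.0 in KO (2.14 ± 0.21), and Irf4 (1.89), Lag3 (1.26) and Ctla4 (1.14) rose with it, while Ikzf2 fell in the same cells. Tnfsf9, which encodes the ligand of CD137, rose from 12.2 and 13.4 to 47.2 and 56.5 CPM (2.03 ± 0.37) there, and Cdh1, a cadherin gene, fell by 2.35 ± 0.53. Of the helper genes 4 of 14 rose and 1 fell, and of the effector maturation genes 4 of 13 rose and 1 fell, with Il7r and Klf2 in both lists. Of all genes tested in CD8-gated cells, 1.42% rose and 0.216% fell. In Foxp3-positive CD4 cells 0 genes of the 5 lists passed. None of the 11 IL-2 signalling genes tested passed in CD4-gated or in CD8-gated cells. In NK-gated cells 2 of 10 rose, Bcl2 (1.05 ± 0.19) and Jak1 (0.89 ± 0.19), against 0.526% of all genes tested.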

How the data were processed

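The values the authors deposited are raw UMI counts, whole numbers for each gene in each barcode. The file headers name Cell Ranger 5.0.0, while the submitters' processing notes list version 5.0.1, the mm10 build and Seurat 3.15, whose role they do not state. Barcodes with under 200 genes or over 20% mitochondrial UMIs were left out. Free RNA was not removed, and no doublet caller was run: the gates leave out cells with both Cd4 and Cd8 UMIs, with over 0.5% macrophage UMIs or with over 1 UMI of Cd79a and Ms4a1. Cells are not replicates, so UMI counts were summed over each gate of a library, and CPM is a sum per 1e6 UMIs of the gate. Tests used edgeR 4.0.16 in R 4.3.3 (filterByExpr, TMM, robust quasi-likelihood, Benjamini-Hochberg over all genes tested, threshold 0.05) and were tested on simulated counts. Standard errors come from the log2 difference and the F statistic. Alternatives were total counts, DESeq2 1.42.0, no low-count filter, other CD3, depth and macrophage limits, a gate without Cd4, the replicate number as a block and each library left out; the macrophage limit of 2% and the left-out libraries of the interaction tests were added after seeing the data. Shares at fixed depth used cells thinned at random to 2000 UMIs (or 1000), with shallower cells left out. All p-values are two-sided. Gene identifiers were matched to GENCODE M21, and promoters to RefSeq by symbol (6 of 9). Named were the 9 genes, up to 5 per direction from each list by size of change, and the 10 genes most like Foxp3. The genes, lists, gates and tests were chosen with earlier results of these data known, and no list is independent evidence. Figures used matplotlib 3.10.9 and Python 3.11.15. The targeted gene is not reported here.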

Additional observations from a re-analysis of the deposited data

Results flagged for a closer look

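The effect of genotype on Ikzf2 was not alike in the T cell gates, by a test of the difference itself. Ikzf2 was 0.05 ± 0.17 log2 units from WT in CD4-gated KO cells and -1.50 ± 0.19 in CD8-gated KO cells, and the interaction term was 1.51 (adjusted p = 0.0174). The difference kept its sign in every alternative run, between 0.94 and 1.83. It was no longer past the threshold with DESeq2 (adjusted p = 0.157), without the macrophage limit (0.203), without WT 2 (0.191) and without KO 2 (0.0854). The WT CD8 gates held 30 and 94 cells against 831 and 405 in KO.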

How the results depend on the processing

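Counts of genes called moved by over 1.5 times under the alternatives below, beside which the range over the left-out libraries is given whether or not it moved so far. For KO against WT in CD4-gated cells (66), DESeq2 gave 11, no low-count filter 125, no macrophage limit 9, at most 20000 UMIs 34, the gate without Cd4 111 and the left-out libraries 42 to 101. In CD8-gated cells (137), DESeq2 gave 83, no filter 333, the 2% limit 76 and the left-out libraries 99 to 165. In NK-gated cells (77), total counts gave 42, DESeq2 39, no filter 266, no macrophage limit 13, at most 20000 UMIs 43 and the left-out libraries 53 to 339. In Foxp3-positive cells (22), DESeq2 gave 5, no filter 76, no macrophage limit 8, at most 20000 UMIs 12 and the left-out libraries 17 to 65. Between Foxp3-positive and Foxp3-negative cells (341), DESeq2 gave 145, no filter 523, the gate without Cd4 953 and the left-out libraries 213 to 335. Between NK and CD8 gates (879), DESeq2 gave 515, no filter 1462 and the left-out libraries 317 to 1079. Between CD4 and CD8 gates no alternative moved the count of 834 so far, and the left-out libraries gave 592 to 818. The genotype effect in CD4 against CD8 gates (12) gave 3 with DESeq2, 71 with no filter, 4 with 1 CD3 UMI, 7 with no macrophage limit, 4 at most 20000 UMIs and 27 to 95 without a library; in NK against CD8 gates (37) it gave 18 with total counts, 2 with DESeq2, 85 with no filter, 10 with 1 CD3 UMI, 17 with no macrophage limit, 23 at most 20000 UMIs and 34 to 150 without a library. Where an arm was left with 1 library, that library is assumed to vary like the others.

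With the replicate number as a block, the counts were 110 in CD4-gated, 168 in CD8-gated, 229 in NK-gated and 64 in Foxp3-positive cells. Deviations of same-numbered libraries correlated at -0.029, -0.049, 0.080 and -0.013, so the libraries share a number and are not shown to be paired. Beyond the changes of Klrg1, Tnfrsf9 and Penk given above and a sign change of Tnfrsf18 in NK cells (0.011), the block changed no call of the 9 genes.

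Of 886 alternatives over 70 tests of single genes, 775 kept direction and side of the threshold, 22 lost and 37 gained a call, and 52 changed sign, none of them past the threshold in either setting. The sign changes were these. Without the macrophage limit, Ikzf2 in CD4 cells became -0.031, Il2ra and Klrg1 in CD8 cells 0.21 and 0.089 and Il2ra in Foxp3-positive cells -0.12, and with the 2% limit Il2ra and Klrg1 in CD8 cells 0.19 and 0.035. In the gate without Cd4, Ikzf2 became -0.11, Tnfrsf18 -0.040 and Tnfrsf9 -0.097. With no low-count filter Il2ra in CD8 cells became 0.028 and Tnfrsf18 in NK cells 0.050, and at most 20000 UMIs Il2ra and Penk in CD8 cells became 0.34 and -0.28, Tnfrsf18 in NK cells 0.11 and the genotype effect on Penk in NK against CD8 gates 0.18. The genotype effect on Il2ra in CD4 against CD8 gates became 0.038 with total counts, 0.016 with DESeq2 and 0.032 with 1 CD3 UMI. Penk between Foxp3-positive and Foxp3-negative cells became 0.075 with total counts, 0.11 with DESeq2, 0.091 with no filter, 0.29 with 1 CD3 UMI, 0.15 at most 20000 UMIs, 0.035 with the 2% limit, 0.50 in the gate without Cd4 and 0.013 without the library block.

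Leaving out a library gave ranges that crossed 0. In CD4 cells these were -0.52 to 0.18 for Il2ra, -0.12 to 0.21 for Ikzf2, -0.064 to 0.38 for Tnfrsf18 and -1.33 to 0.24 for Penk. In CD8 cells they were -0.47 to 0.20 for Il2ra, -0.37 to 0.085 for Tnfrsf4 and -1.43 to 0.91 for Klrg1. In NK cells they were -0.25 to 0.59 for Ikzf2, -0.17 to 0.29 for Tnfrsf18 and -0.20 to 2.18 for Tnfrsf9, and in Foxp3-positive cells -0.26 to 0.57 for Il2ra. Penk between Foxp3-positive and Foxp3-negative cells ranged from -0.72 to 0.61. The genotype effect in CD4 against CD8 gates ranged from -0.31 to 1.06 for Foxp3, -0.067 to 0.023 for Il2ra, -1.30 to 0.0081 for Tnfrsf18 and -1.29 to 0.34 for Klrg1, and in NK against CD8 gates from -3.70 to 5.01 for Tnfrsf4 and -0.67 to 0.68 for Tnfrsf9. The causes were not tested.

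The depth limits what could be called: gate sums ran from 138330 UMIs in NK cells of WT 1 to 3727681 in CD8 cells of KO 1. The smallest gates were those of WT, with 23 to 45 NK and 30 to 94 CD8 cells. The share of cells with a Foxp3 UMI was lower in KO in every setting, with a KO minus WT difference from -18.7 points without KO 2 to -3.73 points without KO 1, with -17.2 points in the gate without Cd4 and -5.82 points at 1000 UMIs per cell.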

Other observations

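CD3-positive cells with no Cd4, Cd8a or Cd8b1 UMI numbered 101, 120, 260 and 176 in WT 1, WT 2, KO 1 and KO 2. They were counted above only where Cd4 was not required, and then only with at most 1 UMI over Ncr1, Klrb1c and Klre1. They held the regulatory T cell genes too, with Foxp3 at 340, 277, 185 and 184 CPM and Ikzf2 at 964, 938, 735 and 771. Tnfrsf4 was at 1455, 1432, 1035 and 1188 CPM, Tnfrsf9 at 930.2, 1061, 608 and 635 and Izumo1r at 228, 239.5, 117 and 73.7. Penk was at 445 and 479 CPM in WT and at 95.3 and 94.3 in KO. Il2ra was at 491, 355, 359 and 308 CPM, Tnfrsf18 at 805, 938, 642 and 781 and Klrg1 at 282, 149, 151 and 116. These cells had medians of 2603 to 2856 UMIs, and 3 measured gamma delta T cell markers summed to 756, 444, 449 and 318 CPM in them. No test was made on them.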
